A study of Mus musculus with 2 samples.

Results

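Enzymes of the pentose phosphate pathway (PPP) are described here through 7 genes, Pgd, Pgls, H6pd, Tkt, Taldo1, Rpia and Rpe, out of 32285 genes counted in leukocytes from AT3 mammary tumors. The 7 genes were chosen by name, as the steps of the pathway, and all were present in both single-cell RNA libraries. One library came from Pgd fl/fl mice (labelled WT) and the other from Pgd fl/fl LysMCre mice (labelled 6PGDKO), so both groups carried the floxed Pgd allele and differed by Cre. Cre in these mice is inserted in Lyz2, the lysozyme gene of macrophages, monocytes and neutrophils, and some dendritic cells (DCs) also use that gene. AT3 is a mammary tumor line from a transgenic mouse that was injected into each host, and tumors of several mice were pooled per genotype. The study's methods describe feature barcodes (oligos) bound to the cells, and then a pooling of sorted cells from tumors of both genotypes. A library here is the deposited set of counts of a genotype, so each genotype was 1 library. Genotype and preparation cannot be told apart, no test between genotypes was possible, and each interval below covers counting error only. The study's methods give a sort of viable CD45+ cells, the labels also name CD11b+ cells in a sentence, and both libraries held T and B cells. Per the study's methods the mice were young adult females, matched for age between groups.

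The PPP branches from glycolysis at glucose 6-phosphate. Its oxidative branch makes NADPH and a lactone, 6-phosphogluconolactonase (Pgls) opens the lactone to 6-phosphogluconate, and 6-phosphogluconate dehydrogenase (Pgd) makes NADPH again while forming ribulose 5-phosphate. In the non-oxidative branch, Rpia and Rpe isomerize that sugar, and transketolase (Tkt) and transaldolase (Taldo1) exchange carbon units with glycolysis in either direction. H6pd performs the opening steps inside the endoplasmic reticulum. Phagocytes use NADPH for the oxidative burst and for antioxidant defence, and dividing cells use ribose 5-phosphate for nucleotides.

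Counts are unique molecular identifiers (UMIs), tags that each mark a captured RNA molecule, and levels are UMIs per 1000000 UMIs of a class of cells (CPM). The Pgd fl/fl library held 3728 barcodes and 27245625 UMIs, and the Pgd fl/fl LysMCre library held 3014 barcodes and 28827045 UMIs, with 0 barcodes in common. A split of 1 pool of cells by oligo would by itself leave 0 in common, so this does not show separate preparations. Cells were placed in 7 classes by marker UMIs, so a name such as macrophage stands for cells like macrophages by C1qa, C1qb, C1qc and related genes. There were 600 and 596 macrophages (Pgd fl/fl first, here and in the following pairs), 68 and 129 monocytes, 70 and 98 DCs, 51 and 71 neutrophils, 1629 and 1025 T cells, 528 and 31 B cells, and 23 and 55 NK cells. A further 596 and 793 cells were in no class, of which 95 and 137 reached the limit of no marker list. The rest reached that of a list or several, including lists of cells outside the 7 classes, such as mast and epithelial tumor cells. Of the cells with macrophage markers, 29.0% of 971 and 40.7% of 1156 also carried T cell markers and were left out. Median depth in a class ran from 2105 UMIs per cell in neutrophils to 12707.5 in DCs, so levels are used below rather than raw shares of cells.

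Pgd, the targeted gene (chr4:149149991-149166705, minus strand, GRCm38.p6), was highest in macrophages and monocytes of Pgd fl/fl tumors and was near the level of T cells in Pgd fl/fl LysMCre tumors. In macrophages it was 111 CPM (739 UMIs) in Pgd fl/fl and 28.5 CPM (197 UMIs) in Pgd fl/fl LysMCre, a log2 ratio of -1.96 (95% interval -2.20 to -1.73), which left 25.7% of the Pgd fl/fl level. In monocytes it was 95.9 CPM (51 UMIs) and 29.1 CPM (28 UMIs), a log2 ratio of -1.72 (-2.44 to -1.03). In neutrophils, 8 and 5 UMIs gave 67.1 and 28.3 CPM, and the interval of the log2 ratio of -1.24 (-3.20 to 0.55) covered 0.

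Outside these classes no loss of Pgd was detected. T cells held 25.7 CPM in Pgd fl/fl and 29.7 CPM in Pgd fl/fl LysMCre, with a log2 ratio of 0.20 (-0.07 to 0.48). DCs held 18.1 and 18.4 CPM from 16 and 23 UMIs, and their interval, from -0.97 to 1.04, is too wide to show a change of under about 2-fold either way. NK cells held 38.7 and 40.5 CPM from 5 and 15 UMIs. B cells held 21.2 CPM (43 UMIs) in Pgd fl/fl and 0 UMIs in the 31 cells of Pgd fl/fl LysMCre, where the Pgd fl/fl level would have given 2.56 UMIs and a count of 0 allows up to 24.9 CPM, so a difference was not detectable at this depth.

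**Figure D1:**
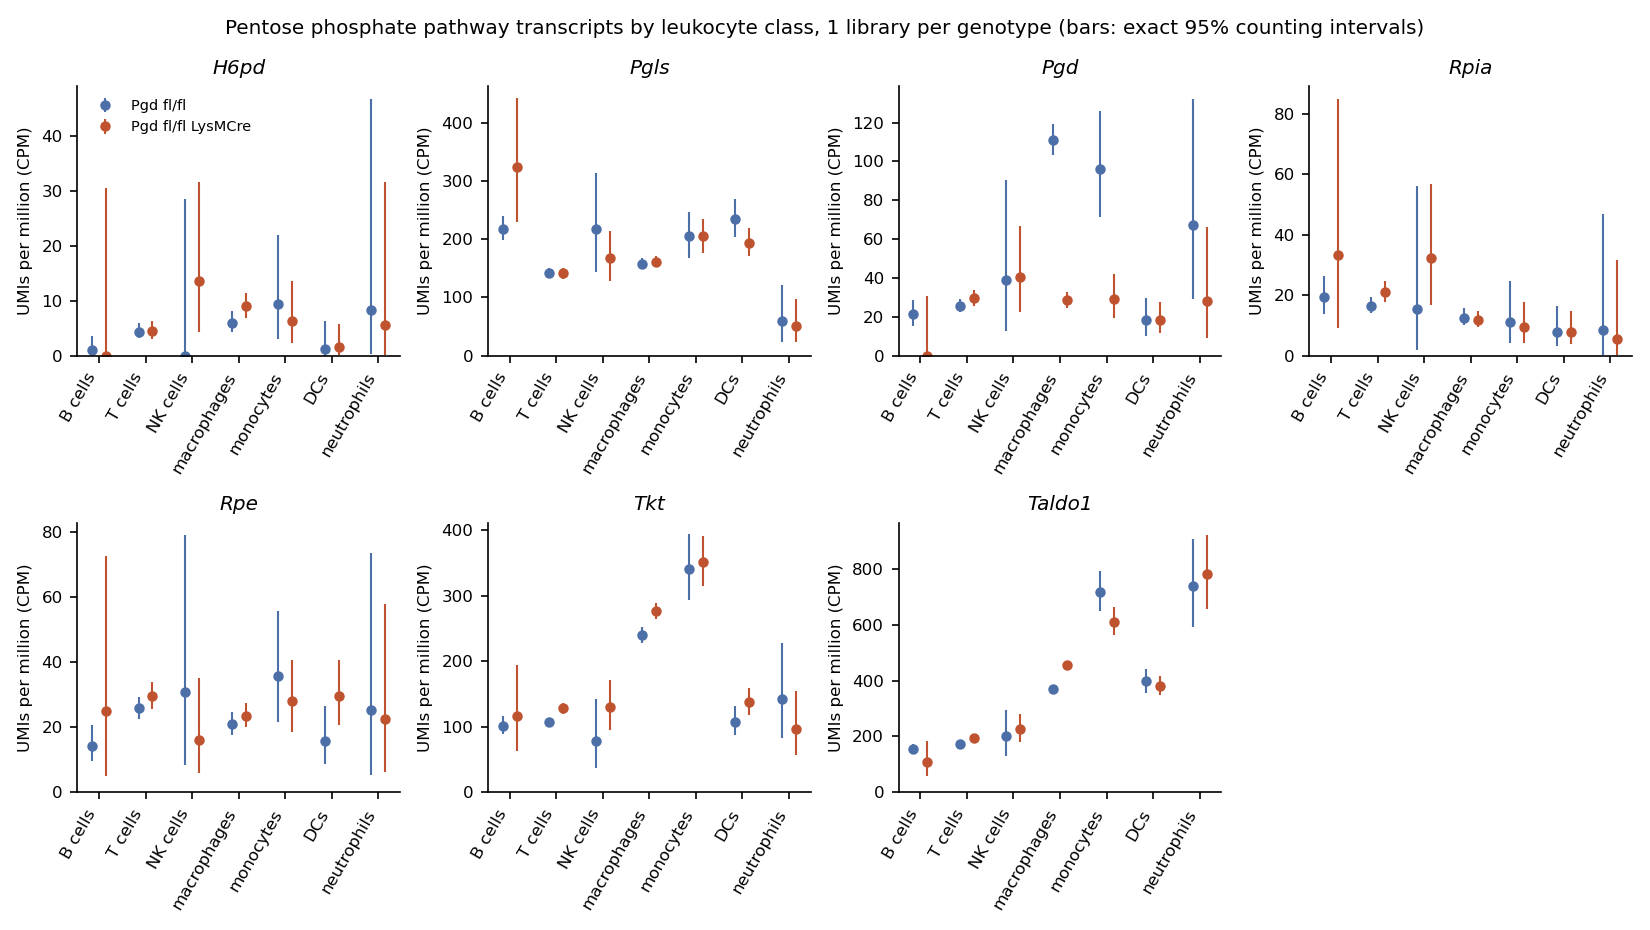
CPM (UMIs per 1000000 UMIs of a class, y axis, linear) of 7 PPP genes in 7 leukocyte classes (x axis). Points are the summed UMIs of a class in the Pgd fl/fl (blue) or Pgd fl/fl LysMCre (red) library, and bars are exact Poisson 95% counting intervals. Pgd separates the libraries in macrophages, 111 against 28.5 CPM, and in monocytes, 95.9 against 29.1 CPM, while Taldo1 is at 738 and 782 CPM in neutrophils.

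In Pgd fl/fl tumors Pgd was 4.31-fold higher in macrophages than in T cells (log2 2.11, 1.90 to 2.32), and in Pgd fl/fl LysMCre tumors it was 0.960 of the T cell level (log2 -0.06, -0.35 to 0.23). Its order in Pgd fl/fl was macrophages, monocytes, neutrophils, NK cells, T cells, B cells and DCs, and no pair of neighbours in that order had intervals apart from each other. Free RNA in a droplet library can add UMIs of macrophage genes to other cells, and T cells showed Apoe, a gene that led a macrophage cluster and was not used to define the class, at 0.648% (Pgd fl/fl) and 0.859% (Pgd fl/fl LysMCre) of the macrophage level. For Cd74, a gene of antigen-presenting cells, these values were 2.64% and 8.29%. Cells with macrophage markers had been left out of the T cells, which can lower such values. Pgd in Pgd fl/fl T cells was 23.2% of the macrophage level, and each of the other 6 members was at 43.1% or more in T cells of either library. Lyz2 itself was 3247 CPM in Pgd fl/fl macrophages and 11.7 CPM, or 0.361% of that, in Pgd fl/fl LysMCre macrophages. The Lyz2 counts check the Cre insertion rather than recombination at Pgd. Lyz2 RNA was thus lower along with Pgd in these macrophages, and the part of each in other ratios cannot be told apart. The exons between the loxP sites are not given in the sources used here, and UMIs tag the 3′ end of an RNA, so the Pgd counts may include RNA from a recombined allele.

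The share of macrophages with a Pgd UMI was lower together with the level. After each cell was thinned to 5000 UMIs, 36.0% of 508 Pgd fl/fl macrophages (31.8 to 40.4) and 12.5% of 505 Pgd fl/fl LysMCre macrophages (9.72 to 15.7) held a Pgd UMI. The thinned T cells held a Pgd UMI in 98 of 777 and 72 of 555 cells. In Pgd fl/fl LysMCre macrophages 87.5% of the cells had no Pgd UMI, and a Poisson count with the same mean of 0.137 UMIs per cell would leave 87.2% without. At that depth a cell with intact Pgd is itself often without a UMI, so the counts cannot separate cells that kept the gene from cells that lost it. Thinning left out 92 and 91 macrophages and 852 and 470 T cells, and before it 59.5% of 600 and 22.5% of 596 macrophages held a Pgd UMI.

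**Figure D2:**
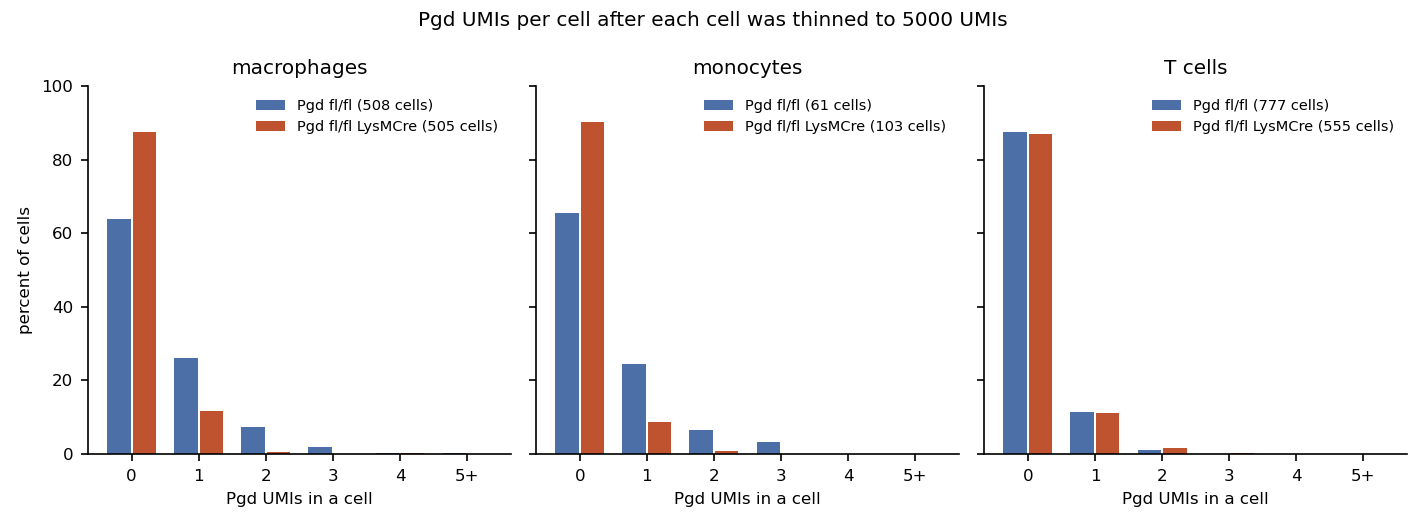
Percent of cells (y axis) by the number of Pgd UMIs in a cell (x axis, the last step being 5 or more) after thinning each cell to 5000 UMIs, in macrophages, monocytes and T cells of the Pgd fl/fl (blue) and Pgd fl/fl LysMCre (red) libraries. Cells without a Pgd UMI make up 64.0% and 87.5% of macrophages and 87.4% and 87.0% of T cells.

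In graph clusters, which were not restricted to cells of 1 lineage, Pgd was again lower where macrophage or monocyte genes led. Pgd went from 118 to 29.4 CPM in the macrophages led by Mmp12, Vcam1 and Apoe (95% interval of the log2 ratio -2.26 to -1.74) and from 100.1 to 23.7 CPM in the cycling macrophages led by Hist1h2ae and Mki67 (log2 -2.08, -2.86 to -1.35), where 9 of 36 and 23 of 38 cells also carried T cell markers. A macrophage cluster led by Retnla, Fn1 and Lyz1 went from 64.9 CPM (7 UMIs) to 7.93 CPM (3 UMIs), and an unnamed shallow cluster with C1q genes, led by Ighg2b and Slpi, from 86.6 CPM (28 UMIs) to 7.36 CPM (2 UMIs). In the macrophages led by Igha, Dnase1l3 and Cfb the difference was smaller, from 77.3 to 33.4 CPM (log2 -1.21, -1.53 to -0.90), with an interval apart from that of the Mmp12 cluster. In that cluster 98.0% and 97.8% of the cells also carried T cell markers, against 3.88% and 7.04% in the Mmp12 cluster, and their part in the smaller difference was not tested. The monocyte cluster led by Plac8 and Ly6i held 80.6 and 32.7 CPM (log2 -1.30, -1.76 to -0.84).

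Pgd also differed in other clusters. The cluster like epithelial tumor cells, led by Igfbp5, Mgp and Lcn2, held 52.9 CPM (42 UMIs) and 32.4 CPM (43 UMIs), a log2 ratio of -0.71 (-1.35 to -0.06). Of its cells 28.8% and 23.7% carried T cell markers, and the part of other cells in its difference was not tested. An unnamed cluster led by H2-M5 and Epcam held 44.4 and 29.8 CPM (log2 -0.58, -1.07 to -0.09), and 27 and 53 cells of the macrophage class and 4 and 10 of the DC class lay in it. In the opposite direction, a T cell cluster led by Gm156 and Gzma held 7.42 CPM (3 UMIs) and 31.6 CPM (22 UMIs), a log2 ratio of 2.09 (0.35 to 4.47). The other T cell clusters had intervals that covered 0.

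**Figure D3:**
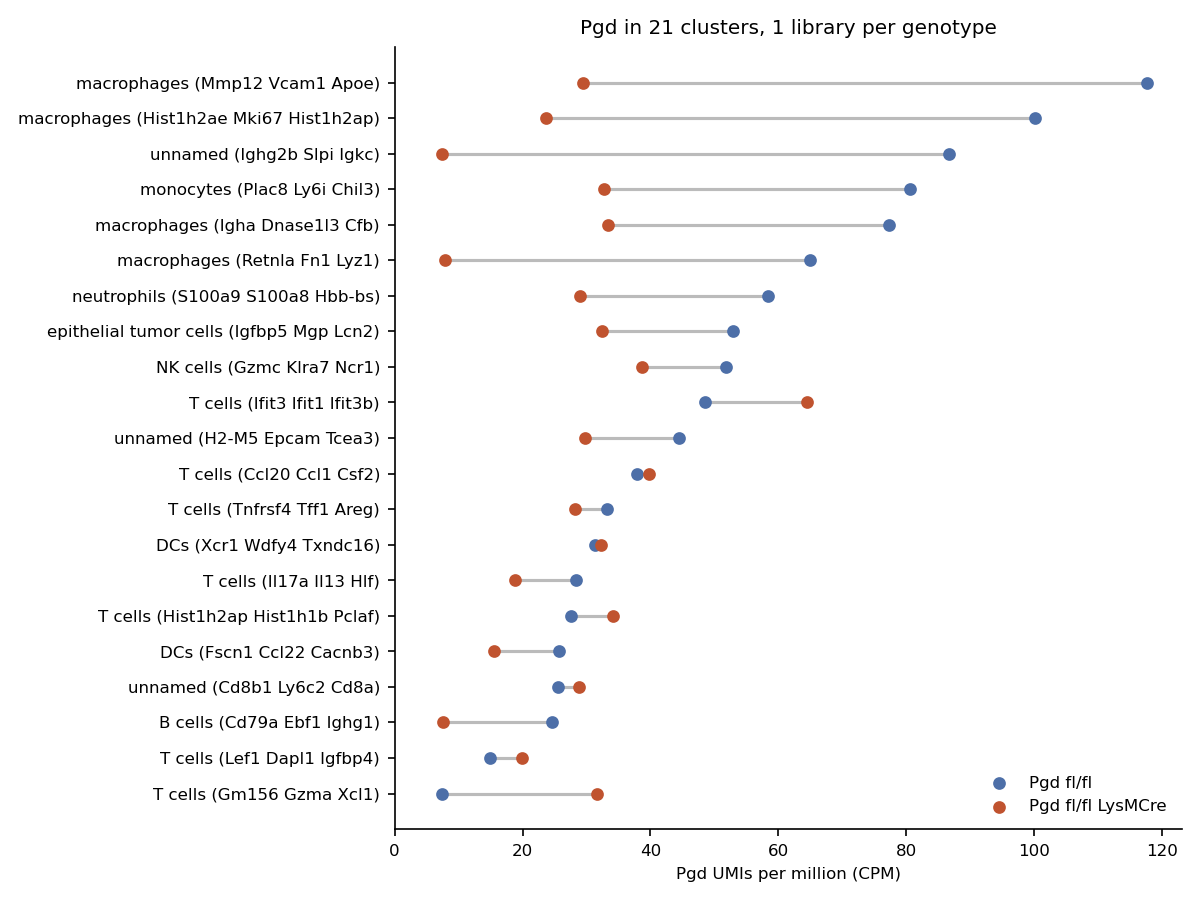
Pgd level (CPM, x axis) in 21 graph clusters, each named by its class and its 3 leading genes, in the Pgd fl/fl (blue) and Pgd fl/fl LysMCre (red) libraries. Grey lines join the values of a cluster, and the longest runs from 118 to 29.4 CPM in the Mmp12 macrophages, while the Gm156 T cells run the other way, from 7.42 to 31.6 CPM.

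H6pd (chr4:149979474-150009023) was sparse in every class. It reached 6.01 CPM (40 UMIs) and 8.96 CPM (62 UMIs) in macrophages and 4.40 and 4.51 CPM in T cells, and the other classes held at most 6 UMIs. Macrophages exceeded T cells in Pgd fl/fl LysMCre (log2 0.99, 0.35 to 1.66), while in Pgd fl/fl the interval covered 0 (log2 0.45, -0.22 to 1.11).

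Pgls (chr8:71592184-71596267), the lactonase before Pgd, did not share the pattern of Pgd. It was found broadly, at 235 and 194 CPM in DCs, 218 and 323 CPM in B cells, 205 and 205 CPM in monocytes, 158 and 161 CPM in macrophages and 142 and 141 CPM in T cells. Macrophages were below B cells in both libraries (log2 -0.47, -0.63 to -0.30 in Pgd fl/fl). Neutrophils had the lowest level, 58.7 and 51.0 CPM from 7 and 9 UMIs, and their intervals lay below those of T cells, the class next to them, in both libraries. Between genotypes its interval lay off 0 in B cells (log2 0.57, 0.06 to 1.04, from 441 and 39 UMIs) and, barely, in DCs (log2 -0.27, -0.55 to 0.00). Neither held throughout, since the B cell interval covered 0 in 5 of 8 alternatives that give an interval and the DC ratio turned to 1.09 (-0.09 to 2.50) in cells without UMIs of another class list.

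In the non-oxidative branch, Tkt (chr14:30549131-30574724) and Taldo1 (chr7:141392160-141402976) were higher in monocytes and macrophages than in lymphocytes. Tkt was 340 and 351 CPM in monocytes, 240 and 276 CPM in macrophages, 143 and 96.4 CPM in neutrophils, 108 and 137 CPM in DCs, 107 and 128 CPM in T cells, 102 and 116 CPM in B cells and 77.4 and 130 CPM in NK cells. Macrophages held 2.24-fold (log2 1.17, 1.05 to 1.28) and 2.16-fold (log2 1.11, 0.99 to 1.23) the T cell level. Monocytes were above macrophages and macrophages above the class next in order in both libraries, and the classes after that had overlapping intervals.

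Taldo1 was highest in neutrophils, at 738 CPM (592 to 909) and 782 CPM (657 to 924), with monocytes next at 719 CPM (648 to 794) and 612 CPM (564 to 664). Macrophages held 371 and 455 CPM and DCs 398 and 381 CPM. NK cells, T cells and B cells were lower, at 201, 174 and 156 CPM in Pgd fl/fl and 227, 196 and 108 CPM in Pgd fl/fl LysMCre. In neutrophils Taldo1 and Tkt parted, since the intervals of Tkt there, 83.1 to 228 CPM and 56.1 to 154 CPM, included the T cell level of each library. Among DCs, the cluster led by Xcr1 held Taldo1 at 744 and 644 CPM, while the cluster led by Fscn1 and Ccl22 held 213 and 192 CPM. In those 2 clusters Tkt was 105 and 139 CPM against 108 and 115 CPM.

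The 2 enzymes that handle ribulose 5-phosphate were not higher in macrophages than in T cells. Rpia (chr6:70765720-70792175), which forms ribose 5-phosphate, was 16.5 and 21.1 CPM in T cells and 12.6 and 11.9 CPM in macrophages. The macrophage level was below that of T cells in Pgd fl/fl LysMCre (log2 -0.83, -1.24 to -0.43), and in Pgd fl/fl the interval reached 0 (log2 -0.39, -0.79 to 0.00). Rpe (chr1:66700797-66719805), the epimerase that forms xylulose 5-phosphate, was 25.8 and 29.5 CPM in T cells and 20.9 and 23.4 CPM in macrophages, a log2 difference of -0.31 (-0.62 to 0.00) and -0.33 (-0.64 to -0.03). Monocytes held Rpe at 35.7 and 28.1 CPM, above macrophages in Pgd fl/fl (log2 0.78, 0.00 to 1.47) and not detectably in Pgd fl/fl LysMCre (log2 0.26, -0.38 to 0.85), and DCs held 15.9 and 29.5 CPM. No neighbouring classes of Rpe had intervals apart in either library.

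Across the 7 classes of Pgd fl/fl, levels of Pgd as log2(CPM + 10) went with those of Tkt (Pearson r 0.83), H6pd (0.77), Taldo1 (0.65) and Rpe (0.55), while r was -0.35 with Pgls and -0.28 with Rpia. Over the 14 values of both libraries, Taldo1 and Rpia ran opposite to each other (r = -0.83). These are descriptions over few classes that share libraries and differ in depth. Of 8297 genes compared, the closest to Pgd over its 7 values were Rnf13, Lpl and Laptm5 (r 0.99, 0.98 and 0.98). Over 14 values they were Spon1, Clec4a1 and Ccl2 for Tkt (0.96 each), and Pirb, Osm and AA467197 for Taldo1 (0.96 each). For Pgls they were Trap1, Zscan26 and Naa38 (0.95, 0.93 and 0.93), for Rpia Taf1d, Timm9 and Gpatch8 (0.92 each), for H6pd Apmap, Cxcl10 and 2510039O18Rik (0.91, 0.90 and 0.88), and for Rpe Vps53, Polr2c and Cript (0.77, 0.73 and 0.71). Each is picked as the best of 8297 over few values, and no background of such r was computed. The Pgd fl/fl values of Pgd in NK cells, neutrophils and DCs rest on 5, 8 and 16 UMIs.

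The 250 bases before a RefSeq start (build GRCm38.p6) of Pgd, Tkt and Taldo1 are shown, 5′ to 3′ on the strand of each gene. They were chosen because the ratios between genotypes in macrophages turn on these 3 members. Pgd has a further RefSeq start, with the window chr4:149166083-149166332, which was searched and is not shown. 3 motifs were searched on either strand, the antioxidant response element core TGACNNNGC of the NRF2 factor (10.2% of 32851 windows of the same length), the STAT motif TTCNNNGAA (7.02%) and the PU.1 letters GAGGAAGT (2.44%). None of them was in these 3 windows or in that of the further Pgd start, so no letter is in capitals. No match says only that these letters are not in these windows. By chromatin immunoprecipitation in bone marrow cells given IL-6, the study reported phosphorylated STAT3 at part of the sites it tested in the Pgd promoter. A primer pair of that assay lies within the Pgd window shown. Of the windows of Pgls, H6pd, Rpia and Rpe, the Rpe window held the PU.1 letters, which is a description and not a binding site. Annotated genes overlap Rpe (Kansl1l) and Tkt (Mir3076).
Pgd, chr4:149166706-149166955, minus strand: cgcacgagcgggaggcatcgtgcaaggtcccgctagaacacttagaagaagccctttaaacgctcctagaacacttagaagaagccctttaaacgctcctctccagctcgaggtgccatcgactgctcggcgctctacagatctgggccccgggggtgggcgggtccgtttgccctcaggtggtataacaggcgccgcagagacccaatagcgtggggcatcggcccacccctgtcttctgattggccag
Tkt, chr14:30548881-30549130, plus strand: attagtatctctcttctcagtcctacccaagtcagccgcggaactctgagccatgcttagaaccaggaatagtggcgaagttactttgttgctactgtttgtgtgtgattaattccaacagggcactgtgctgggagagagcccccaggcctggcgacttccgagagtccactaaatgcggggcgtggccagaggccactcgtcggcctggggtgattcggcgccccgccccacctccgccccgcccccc
Taldo1, chr7:141391910-141392159, plus strand: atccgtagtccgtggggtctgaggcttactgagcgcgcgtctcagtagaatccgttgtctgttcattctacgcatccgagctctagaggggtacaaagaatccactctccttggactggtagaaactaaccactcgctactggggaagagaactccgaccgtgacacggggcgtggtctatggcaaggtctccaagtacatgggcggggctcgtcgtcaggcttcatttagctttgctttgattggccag

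In the macrophage and monocyte classes, where Pgd was lower, no other of these steps with at least 50 UMIs differed by over 1.5-fold. In single clusters with lower Pgd 3 did, Rpe in the monocyte cluster, at 37.8 CPM (38 UMIs) and 22.6 CPM (58 UMIs, log2 -0.74, -1.36 to -0.11), Tkt in the Ighg2b cluster, at 247 CPM (80 UMIs) and 379 CPM (103 UMIs, log2 0.62, 0.18 to 1.06), and Pgls in the Retnla cluster, at 121 CPM (13 UMIs) and 193 CPM (73 UMIs), with an interval that covered 0 (log2 0.68, -0.18 to 1.65). In macrophages, 1 of 7 members, Pgd, was lower by over 1.5-fold in Pgd fl/fl LysMCre and 0 of 7 were higher, beside 3.13% and 3.75% of the 9475 genes with at least 50 UMIs. The Pgd ratio was among the lowest, with 4 of the 9475 genes below it, and that contrast is the engineered one. H6pd was nearest to the fold among the others, at 1.49-fold and with an interval that covered 0 (log2 0.58, -0.02 to 1.19).

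The transfer enzymes of the non-oxidative branch were the 2 members whose counting intervals lay above 0 in macrophages. Taldo1 was 371 CPM (2472 UMIs) in Pgd fl/fl and 455 CPM (3146 UMIs) in Pgd fl/fl LysMCre, a log2 ratio of 0.29 (0.22 to 0.37). Tkt was 240 CPM (1599 UMIs) and 276 CPM (1910 UMIs), a log2 ratio of 0.20 (0.11 to 0.30). The macrophages lay in the Mmp12 cluster for 75.7% and 61.4% and in the monocyte cluster for 3.83% and 12.2%, and the part of this makeup was not tested beyond the Mmp12 cluster. Their ratios were within the bulk of genes, as 13.9% of all genes had a higher ratio than Taldo1 and 22.7% a higher one than Tkt, around a median of 0.02. Their intervals stayed above 0 in each of the 9 alternatives that give an interval, with Taldo1 between 0.26 and 0.46 and Tkt between 0.18 and 0.31. In the Mmp12 cluster alone, Taldo1 was 350 and 467 CPM (log2 0.42, 0.33 to 0.50).

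The intervals of Pgls, Rpia and Rpe covered 0 in macrophages. Pgls had a log2 ratio of 0.03 (-0.09 to 0.15), Rpia of -0.09 (-0.55 to 0.37) and Rpe of 0.17 (-0.17 to 0.50). The interval of Pgls ran from 93.9% to 111% of the Pgd fl/fl level, while that of Rpe reached 142% and that of H6pd 228%, and that of Rpia went down to 68.5%. Over the macrophage clusters in place of the class, the interval of Pgls lay above 0 (log2 0.13, 0.03 to 0.23).

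**Figure D4:**
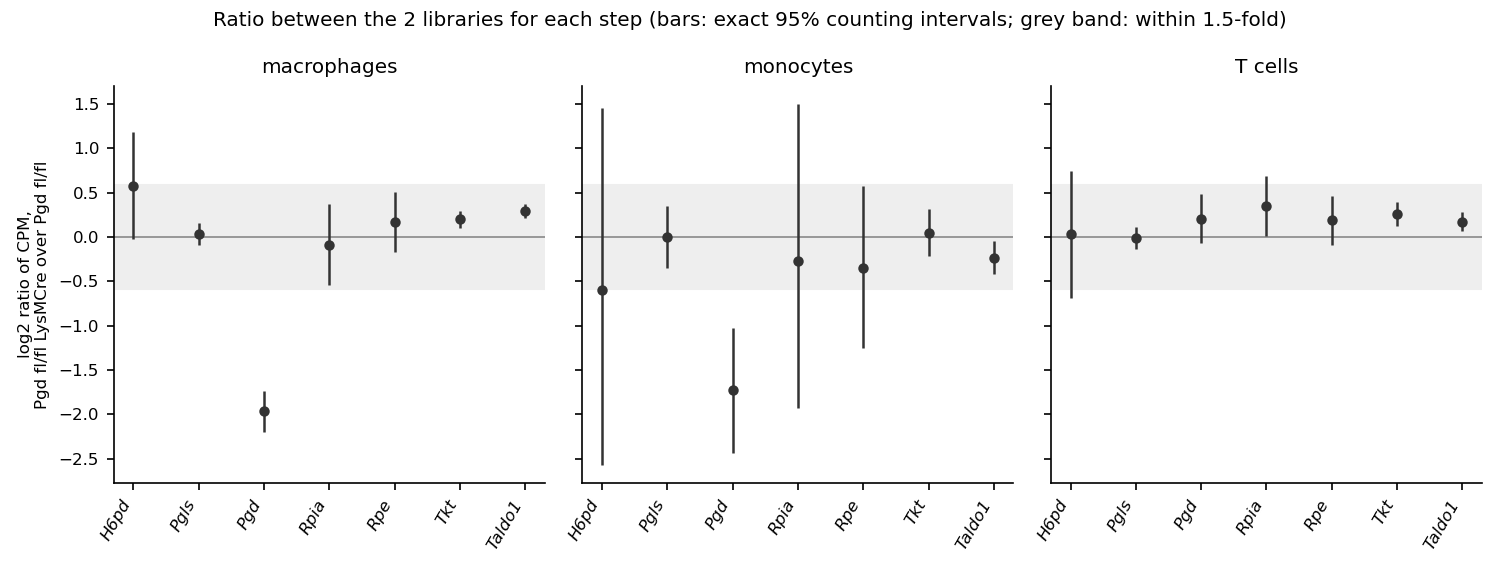
Log2 ratio of CPM, Pgd fl/fl LysMCre over Pgd fl/fl (y axis), for 7 PPP genes (x axis) in macrophages, monocytes and T cells. Points are ratios of summed UMIs, bars exact conditional 95% counting intervals and the grey band the range within 1.5-fold. Pgd lies at -1.96 and -1.72 in macrophages and monocytes and at 0.20 in T cells, and of the other 6 genes H6pd in monocytes, from 5 and 6 UMIs, lies outside the band, at -0.59.

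In monocytes the shift of Taldo1 had the opposite sign. It was 719 CPM (382 UMIs) and 612 CPM (589 UMIs), a log2 ratio of -0.23 (-0.42 to -0.04), which turned to 0.02 when each cell was thinned to 1500 UMIs. Tkt had a log2 ratio of 0.04 (-0.22 to 0.31) and Pgls of 0.00 (-0.35 to 0.35). Of the 4 members with at least 50 UMIs, 1 (Pgd) was lower by over 1.5-fold and 0 were higher, beside 6.1% and 9.35% of 3637 genes. The 68 and 129 monocytes set this precision.

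T cells do not use Lyz2, and there too 3 of the 7 members had intervals above 0. Tkt had a log2 ratio of 0.26 (0.13 to 0.39), Taldo1 of 0.17 (0.07 to 0.28) and Rpia of 0.35 (0.02 to 0.69). The share of all T cell genes with an interval above 0 was not computed. These 3 ratios were within the bulk of genes, as 19.8% of 9930 genes had a higher ratio than Rpia, 28.9% than Tkt and 39.3% than Taldo1. No member of 7 passed 1.5-fold either way, beside 8.38% of 9930 genes higher and 2.37% lower, and the median of all T cell genes was 0.11. The Tkt ratio was 0.26 in T cells and 0.20 in macrophages, with overlapping intervals. In T cells the interval stayed above 0 in 5 of 8 alternatives for Tkt, in 3 of 8 for Taldo1 and in 1 of 8 for Rpia. The T cells of the libraries differed in kind, as a cluster led by Lef1 and Dapl1 held 503 Pgd fl/fl and 44 Pgd fl/fl LysMCre cells, and cycling cells were 12.6% and 20.8% of T cells. Cd74 was 782 and 1771 CPM in T cells, from which cells that reached the monocyte or DC list had not been left out. The part of these in the T cell ratios was not tested beyond leaving out cycling cells, after which Tkt was at 0.23 (0.06 to 0.40), Taldo1 at 0.21 (0.08 to 0.34) and the interval of Rpia covered 0.

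Cycling cells, those with at least 2 UMIs from genes of the cell cycle such as Mki67 and Top2a, held more Tkt and Taldo1 among T cells. Tkt was 160 CPM in cycling and 92.2 CPM in other T cells of Pgd fl/fl (log2 0.80, 0.60 to 0.99), and 166 and 108 CPM in Pgd fl/fl LysMCre (log2 0.62, 0.42 to 0.81). Taldo1 was 235 and 157 CPM in Pgd fl/fl (log2 0.59, 0.43 to 0.74) and 226 and 181 CPM in Pgd fl/fl LysMCre (log2 0.32, 0.16 to 0.48). Pgls was higher in cycling T cells of Pgd fl/fl, at 173 and 133 CPM (log2 0.38, 0.20 to 0.56), and not detectably in Pgd fl/fl LysMCre (log2 0.00, -0.20 to 0.19). Pgd was 31.5 against 24.1 CPM and 34.6 against 27.2 CPM, and its intervals, like those of Rpia, Rpe and H6pd, covered 0. In Pgd fl/fl macrophages the same split gave 0.31 (0.15 to 0.48) for Tkt and 0.23 (0.10 to 0.37) for Taldo1, and in Pgd fl/fl LysMCre macrophages -0.04 (-0.19 to 0.11) and -0.11 (-0.23 to 0.01). The difference of these differences was not tested. Cycling T cells were deeper, at a median of 9045 against 4660 UMIs per cell in Pgd fl/fl.

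Around the pathway, 4 lists of genes were read in macrophages. Of the entry list, 7 of 8 genes had at least 50 UMIs, 0 passed 1.5-fold and the median log2 ratio was 0.21. Of all 9475 genes, 3.75% were higher and 3.13% lower past that fold. The highest were the hexokinase genes Hk3, at 29.4 and 42.2 CPM (log2 0.52, 0.25 to 0.79), and Hk1, at 10.2 and 13.6 CPM (log2 0.41, -0.05 to 0.88). Gpi1, which converts glucose 6-phosphate to fructose 6-phosphate and was singled out after its values were seen, was 275 and 352 CPM (log2 0.36, 0.27 to 0.45). Higher entry genes were not particular to macrophages, as 3 of 7 had intervals above 0 there and 3 of 7 in T cells. In T cells the Gpi1 ratio was 0.15 (0.06 to 0.24), and the median of the list was 0.13. The lowest in macrophages were Slc37a4, the glucose 6-phosphate transporter of the endoplasmic reticulum (log2 -0.38, -1.07 to 0.29), and G6pc3, a glucose 6-phosphatase (log2 -0.18, -0.62 to 0.25).

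Of the genes listed under ribose phosphate use, Shpk, with 4 and 14 UMIs in macrophages, had an interval above 0 (log2 1.75, 0.08 to 3.81). The 7 of 8 at 50 UMIs or more had intervals that covered 0, with a median log2 ratio of 0.10 and 0 past 1.5-fold. The highest were Pgm2 (0.32, -0.10 to 0.74) and Prps1, which makes the nucleotide precursor PRPP (0.15, -0.17 to 0.47). The lowest were Prpsap1 (-0.24, -0.58 to 0.10) and Prps2 (-0.09, -0.48 to 0.29). Of the paralogues and modulators, 3 of 6 were measured, 0 passed 1.5-fold and the median was 0.07. Idnk, a gluconate kinase that makes 6-phosphogluconate, was 46.2 and 54.2 CPM (log2 0.23, 0.01 to 0.45), the phosphatase Pgp was at 0.07 (-0.18 to 0.32) and Tigar, which lowers fructose 2,6-bisphosphate, at -0.44 (-1.08 to 0.19). The paralogues Tktl1 and Tktl2 had 0 UMIs in macrophages of either library.

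The other sources of NADPH gave 7 of 13 measured genes, 0 past 1.5-fold and a median of 0.11. Idh1, the cytosolic isocitrate dehydrogenase, was 18.2 CPM (121 UMIs) and 25.4 CPM (176 UMIs), a log2 ratio of 0.49 (0.14 to 0.83), and Mthfd1l of folate metabolism was at 0.34 (-0.27 to 0.96). The lowest were Nadk2, the mitochondrial NAD kinase (-0.02, -0.68 to 0.64), and mitochondrial Idh2 (-0.01, -0.21 to 0.20). In monocytes the glucose transporter gene Slc2a1, singled out after its values were seen, was the 1 gene past 1.5-fold of the 7 measured, beside 9.35% of all 3637 genes higher past that fold. It was at 54.6 CPM (29 UMIs) and 121 CPM (116 UMIs), a log2 ratio of 1.14 (0.55 to 1.78).

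**Figure D5:**
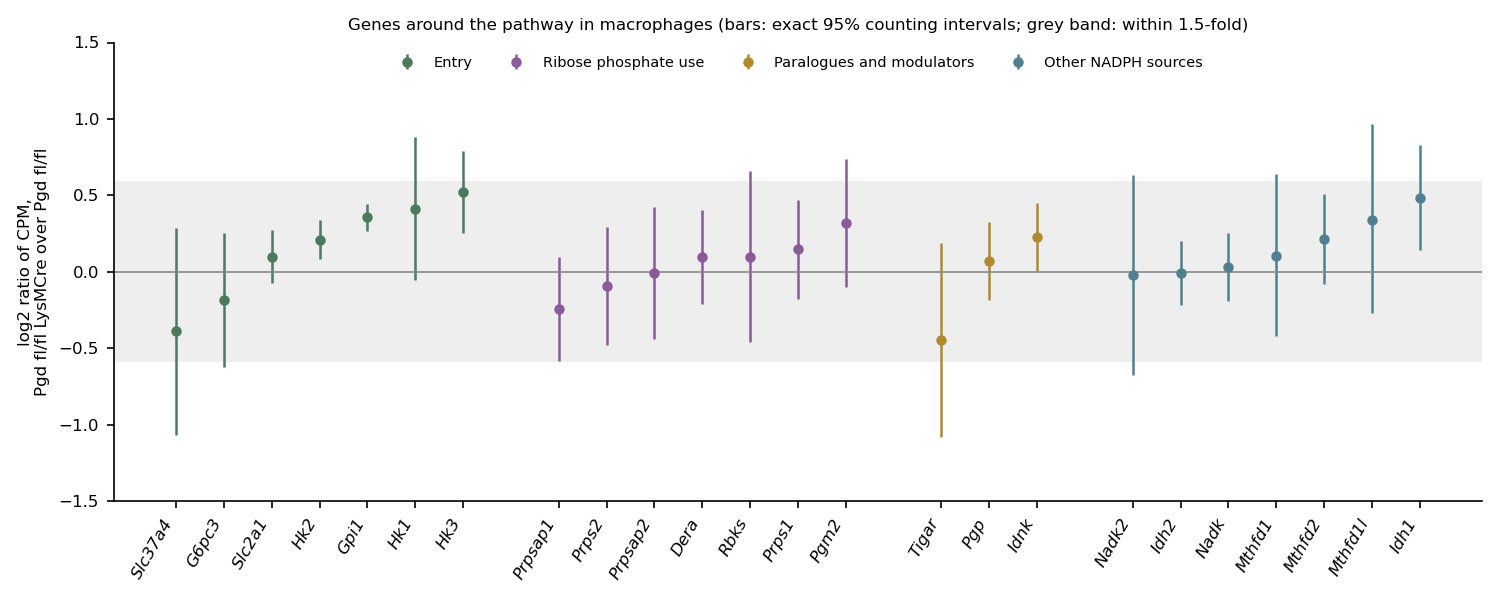
Log2 ratio of CPM in macrophages, Pgd fl/fl LysMCre over Pgd fl/fl (y axis), for the genes with at least 50 UMIs of 4 lists around the pathway (x axis, coloured by list). Bars are exact conditional 95% counting intervals and the grey band is the range within 1.5-fold. Hk3 at 0.52 and Idh1 at 0.49 are the highest points, and all points lie inside the band.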

How the data were processed

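Single-cell RNA was measured in 1 library of tumor leukocytes per genotype. The authors deposited unnormalized UMI counts per gene and barcode, made with Cell Ranger 6.1.2 on build mm10 (submitters' processing notes), with counts of 12 multiplexing oligos. Read-level steps were not repeated.

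Barcodes outside 500 to 7500 genes or over 15% mitochondrial UMIs were dropped. A cell entered a class with at least 3 UMIs from 2 of its markers, unless a checked list of another lineage was at that limit. These limits were set after the data were seen. The plasma cell list was not checked for any class, and the monocyte and DC lists were not checked for B, T and NK cells. A myeloid cell took the myeloid list with the most UMIs. No doublet caller was used, and the gate left out cells of mixed lineage only by the lists it checked. UMIs were summed per class and library and scaled to CPM (median depth 5317.5 and 7296 UMIs per barcode). Intervals at 95% are exact Poisson (levels), exact conditional (log2 ratios) and Clopper-Pearson (shares), from scipy 1.17.1, and take UMIs as independent. A gene at 0 is bounded by 3 counts. Clusters used leidenalg 0.10.2 (2000 variable genes, 30 components). Named genes were the members, the 2 highest and 2 lowest ratios in macrophages of 4 lists, Lyz2 and the 3 genes most alike each member. Gpi1, Slc2a1, Shpk, Apoe and Cd74 were named after their values were seen. The members and lists were chosen with earlier results of these data known. Interval code was tested on simulated data. The alternatives were 10 ways to choose or scale cells and 2 other limits for the fold. Results that name 1 further member are not reported here.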

Additional observations from a re-analysis of the deposited data

Results flagged for a closer look

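The log2 ratio of Pgd fl/fl LysMCre over Pgd fl/fl had opposite signs, with counting intervals apart, in 4 pairs of classes. For Pgd these were macrophages (-1.96) against T cells (0.20) and monocytes (-1.72) against T cells. The Pgd interval of T cells, -0.07 to 0.48, covered 0, so a rise there was not detected. For Taldo1 they were monocytes (-0.23) against macrophages (0.29) and against T cells (0.17). With 1 library per genotype the difference between the classes was not tested.

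The multiplexing oligos, outside the main measurement, held UMIs of the other genotype's oligo, 6.06% of all oligo UMIs in the Pgd fl/fl library and 3.90% in the Pgd fl/fl LysMCre library. Whether free RNA or cells crossed between the genotypes, including into the Pgd UMIs of Pgd fl/fl LysMCre macrophages, was not tested. With barcodes at 90% or more of their own oligo, the Pgd log2 ratio in macrophages was -1.94 (-2.18 to -1.71). This cut left out 1864 of 3565 kept Pgd fl/fl cells and 781 of 2798 kept Pgd fl/fl LysMCre cells. In T cells the intervals of Taldo1 (0.05, -0.10 to 0.20) and Tkt (0.18, -0.02 to 0.37) then covered 0.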

How the results depend on the processing

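No paired analysis was possible because each genotype had 1 library. Of 401 recomputed log2 ratios of the 7 members, 375 stayed within their main counting interval and 26 lay outside it. The sign turned for 4 of the 95 whose main interval lay off 0 and for 73 of the 306 whose main interval covered 0, among them Rpia in macrophages, which ran from -0.25 to 0.25. Pgd in macrophages stayed between -2.56 and -1.82 and in monocytes between -3.13 and -1.30. Among macrophages without any UMI of another class list, log2 ratios moved to -2.56 for Pgd, 0.46 for Taldo1, 0.31 for Tkt and 1.30 for H6pd (-0.17 to 2.97). With cells thinned to 1500 UMIs, Tkt in macrophages was at 0.31 and Pgd in monocytes at -3.13. Without cycling cells, Taldo1 in macrophages was at 0.37. At a minimum of 200 UMIs, 0 members were lower past the fold in monocytes, since Pgd was then below the minimum. The 4 were Pgls in DCs without UMIs of another list (1.09), Taldo1 in T cells (-0.053) and monocytes (0.016) after thinning, and Taldo1 of monocytes when monocytes and macrophages were summed (0.26), where macrophages hold most of the UMIs. Of the levels, 201 moved outside their main interval and 709 did not. B cells and NK cells of 31 and 23 cells, neutrophils and H6pd are limited by depth.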
